A study of Mus musculus with 6 samples.

Results

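Lysosomal enzymes, their cofactors and lysosomal membrane proteins were followed at the transcript level in mouse embryonic stem cells with and without induced Ago2. This Argonaute protein holds microRNAs and pairs them with target transcripts. The set was a list of 42 names, and its genes were chosen by name with the measured difference between the 2 conditions already known. Of these, 41 were found among the 31306 genes with a usable transcript, 39 under the listed name and 2, Tfeb and Tfe3, under their older names Tcfeb and Tcfe3. The remaining name, Igf2r-placeholder, matched no gene and has no value. The values for each of the 41 genes were the summed FPKM of its isoforms, that is, fragment numbers corrected for transcript length and library total.

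The cells were of the line TT-FHAgo2, derived from a single clone, whose Ago2 level depends on doxycycline. All cultures were propagated in 0.1 µg/mL doxycycline. In one group the dose was 2.5 µg/mL over 48 h, stated to bring Ago2 to its wild-type amount. In the other group the drug was removed for 96 h. Each group held 2 strand-specific libraries of polyA RNA, numbered 0 and 1 in the deposited columns, and the series' 2 spike-in samples were not analysed here. Drug dose, time and Ago2 level differ together between the groups and cannot be told apart. Separate cultures are not stated for the libraries of a group, so all errors and p-values reflect the spread among these samples alone, and this spread may be technical.

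The lysosome is the acidic compartment in which cells break down proteins, glycans, glycogen, sphingolipids and cholesterol esters. Most of its soluble hydrolases are tagged with mannose 6-phosphate in the Golgi apparatus and carried to the lysosome by mannose 6-phosphate receptors, while its membrane is lined by heavily glycosylated proteins such as LAMP1 and LAMP2. The related transcription factors TFEB, TFE3 and MITF bind a short promoter element (the CLEAR element, built around the E-box CACGTG) near many lysosomal genes, and inherited loss of single members causes lysosomal storage diseases.

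Promoter sequences are shown for 4 members to set the element beside the values that follow. Lamp1 held the most copies of the E-box core, Ctsa and Gaa held it and were higher off doxycycline, and Naaa, which had the largest difference of all members, held none. Each sequence runs 5′ to 3′ from 250 bases before to 50 bases after the gene's start in RefSeq (build GRCm38.p6), with CACGTG in capitals.
Lamp1, chr8:13158911-13159210 (+ strand): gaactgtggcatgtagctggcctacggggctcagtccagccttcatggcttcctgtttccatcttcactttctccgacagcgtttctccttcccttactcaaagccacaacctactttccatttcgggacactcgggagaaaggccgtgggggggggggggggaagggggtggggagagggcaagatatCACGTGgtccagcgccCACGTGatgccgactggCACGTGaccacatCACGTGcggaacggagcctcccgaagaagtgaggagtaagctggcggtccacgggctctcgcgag
Ctsa, second promoter, chr2:164833523-164833822 (+ strand): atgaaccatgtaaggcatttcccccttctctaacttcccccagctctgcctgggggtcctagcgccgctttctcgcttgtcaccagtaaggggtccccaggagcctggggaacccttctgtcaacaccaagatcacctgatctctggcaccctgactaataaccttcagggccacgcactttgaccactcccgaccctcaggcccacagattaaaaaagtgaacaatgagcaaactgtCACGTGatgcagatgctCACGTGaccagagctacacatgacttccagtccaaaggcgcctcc
Gaa, chr11:119267713-119268012 (+ strand): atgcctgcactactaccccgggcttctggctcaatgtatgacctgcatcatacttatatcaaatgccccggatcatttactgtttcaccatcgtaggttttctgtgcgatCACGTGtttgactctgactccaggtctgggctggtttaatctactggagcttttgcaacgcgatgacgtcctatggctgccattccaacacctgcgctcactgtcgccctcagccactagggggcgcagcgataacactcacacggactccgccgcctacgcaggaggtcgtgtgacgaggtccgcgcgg
Naaa, chr5:92278132-92278431 (- strand): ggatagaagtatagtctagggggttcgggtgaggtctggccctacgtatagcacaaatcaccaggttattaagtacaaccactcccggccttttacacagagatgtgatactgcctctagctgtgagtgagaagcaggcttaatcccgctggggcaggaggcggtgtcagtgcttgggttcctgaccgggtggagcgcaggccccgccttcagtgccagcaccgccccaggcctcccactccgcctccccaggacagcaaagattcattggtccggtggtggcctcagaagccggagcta

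Ago2 acts through microRNAs, and the family with the seed AAGUGCU (miR-291a-3p, miR-294-3p, miR-295-3p and the miR-302 group) is a major family of embryonic stem cells. The mature sequences are given below from RefSeq (build GRCm38.p6), with the shared seed, bases 2 to 8, in capitals.
mmu-miR-291a-3p, chr7:3218968-3218989 (+ strand): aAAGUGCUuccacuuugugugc
mmu-miR-294-3p, chr7:3220691-3220712 (+ strand): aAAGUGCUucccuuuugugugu
mmu-miR-295-3p, chr7:3220815-3220837 (+ strand): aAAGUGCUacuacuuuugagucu
mmu-miR-302b-3p, chr3:127545275-127545297 (+ strand): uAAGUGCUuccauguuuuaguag
mmu-miR-302d-3p, chr3:127545665-127545687 (+ strand): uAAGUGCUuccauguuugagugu

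Matches to this seed were searched in the 3′ untranslated region of each member, taking the longest in GENCODE mouse release M21. The 2 members with an 8mer match (AGCACTTA, pairing with the seed and followed by A) were Lamp2 and Gla, and Tpp1 and Neu1 are shown as members with the shorter 7mer-m8 match (AGCACTT). Each line gives the site in capitals with its flanks, 5′ to 3′.
Lamp2, 8mer: ttgactgctacAGCACTTActaatttggct
Gla, 8mer: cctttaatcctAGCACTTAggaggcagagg
Tpp1, 7mer-m8: aaactgcaggaAGCACTTggggagaggaaa
Neu1, 7mer-m8: ccgtcaccaagAGCACTTttttccagtatg

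All 10 pluripotency markers were at or above 1 FPKM, with summed levels of 4240 to 4735 FPKM with and 4427 to 5013 FPKM off doxycycline. Of these markers Nanog (log2 change 0.54) and Fgf4 (0.83) were called higher and Zfp42 (-0.49) and Utf1 (-0.61) lower. Ago2 itself, listed under its older name Eif2c2, measured 35.2 and 36.7 FPKM with and 28.7 and 28.8 FPKM off doxycycline, a log2 change of -0.32 ± 0.08 (SE) that passed limma's test. In both libraries numbered 1, low values were whole multiples of 1 fragment for 99.4% and 99.5% of those examined (within 0.1 fragment, where chance gives 20%), which puts their totals at 45.6 M and 45.8 M fragments. For the libraries numbered 0 the shares were 44.2% and 47.4%, and their depth is unknown.

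Summed over all members, lysosomal transcripts had a higher FPKM in both libraries off doxycycline. The sum was 1129.7 and 1147 FPKM with doxycycline and 1350.3 and 1388 FPKM off it, or 0.222% and 0.214% against 0.300% and 0.286% of the FPKM of the isoforms used for all genes (named, at least 200 nt). Without Naaa the shares were 0.221% and 0.214% against 0.293% and 0.280%. On this base both libraries off the drug lay above both libraries on it, with or without Naaa. It leaves out isoforms under 200 nt, which held 98.9% to 99.6% of a library's FPKM. Over all isoforms the order did not hold, with shares of 0.00225% and 0.0021% with and 0.00279% and 0.00112% off doxycycline. In bulk RNA such as this, a change in the number of cells of a kind and a change in RNA per cell cannot be told apart.

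Of the 41 genes, 39 reached a mean of 1 FPKM in at least 1 condition and entered the test over all genes. Throughout, a log2 change is the level off minus the level with doxycycline on the scale of log2(FPKM + 0.5). Changes of low genes are understated on it. Its error is the SE from limma over 2 libraries per condition. Under limma at an adjusted p of 0.05, 17 members were higher, 6 were lower and 16 did not pass, so that 23 of 39 were called. Over all 13206 genes tested, 41% were called, 19.7% higher and 21.3% lower. By role, 75% of proteases, 41.7% of glycosidases, 33.3% of sulfatases, 62.5% of lipid enzymes and cofactors and 83.3% of membrane proteins were called. For transcription factors the share was 50%. The values of the 2 conditions did not overlap for 32 of the 39 members, and for 73.1% of all genes tested. Because the members were selected on this same contrast, these counts describe the set and are not evidence about it. Their log2 changes ran from -0.93 to 2.72 with a median of 0.23, while the median over all genes tested was -0.06. All 23 called members kept their sign under each of the 16 alternative settings in which they were tested, and 7 kept their call under all of theirs. Without library 0 or library 1 with doxycycline 11 members were called, and without library 0 off doxycycline 15. With only the most abundant isoform of each gene 11 members were called, and 16.5% of all genes tested. With only isoforms that match an annotated transcript 15 members were called, and 20.9% of all genes tested. The 10 that stayed called whichever library was left out were Naaa, Lamp2, Ctsa, Ctsl, Ctsf, Ctsc, Arsa, Scarb2, Gaa and Neu1. The other 13 lost the call without at least 1 library.

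**Figure D1:**
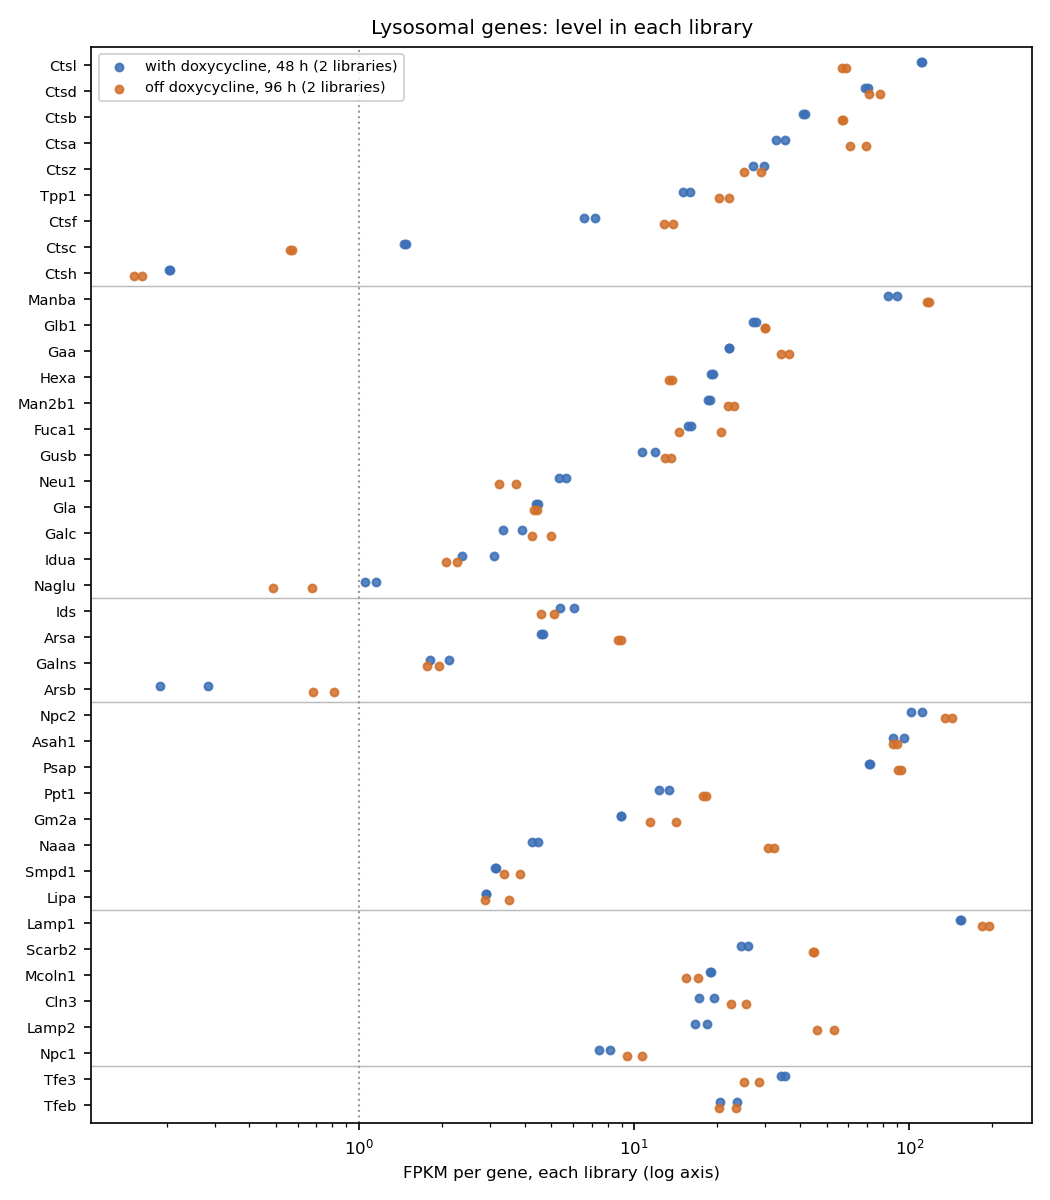
Level of each of the 41 lysosomal genes in each of the 4 libraries, as FPKM per gene on a log axis, with horizontal lines between roles (from the top: proteases, glycosidases, sulfatases, lipid enzymes and cofactors, membrane proteins, transcription factors). Blue points are the 2 libraries with doxycycline and orange points the 2 libraries off it, and the dotted line marks 1 FPKM. Levels ran from below 1 FPKM for Ctsh and Arsb to above 100 FPKM for Lamp1 and Npc2, and Naaa shows the widest gap between the conditions.

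**Figure D2:**
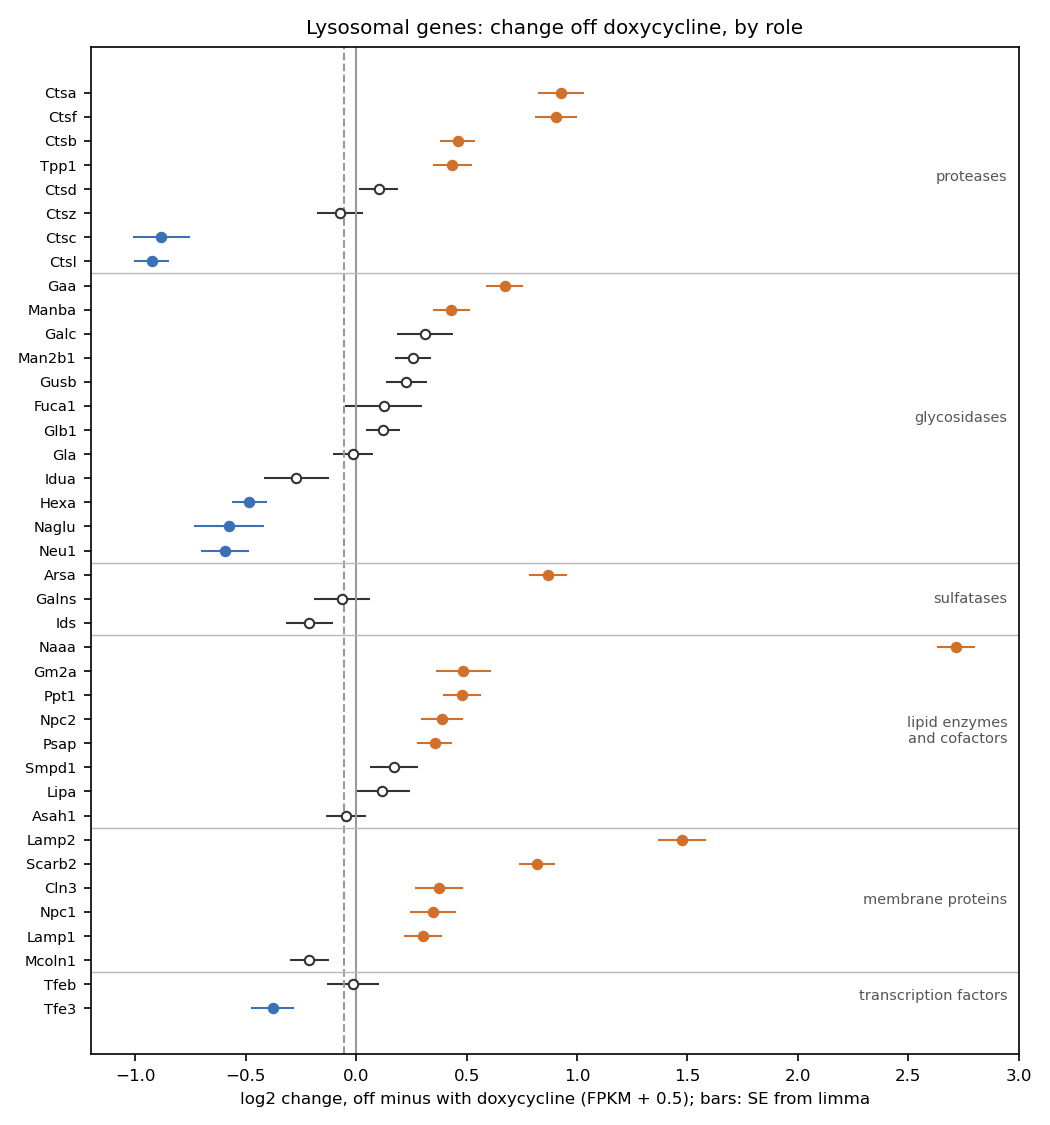
Log2 change (off minus with doxycycline, FPKM + 0.5) of the 39 members tested, grouped by role, with bars of 1 SE from limma (2 libraries per condition). Orange points passed as higher, blue points as lower and open points did not pass, and the dashed line is the median of all genes tested (-0.06). Of the membrane proteins 5 of 6 were higher, whereas proteases and glycosidases had called members on both sides.

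The lysosomal proteases split in both directions. Of 8 tested, 4 rose (Ctsa, Ctsf, Ctsb and Tpp1), 2 fell (Ctsl and Ctsc) and 2 did not pass (Ctsd and Ctsz). The shares over all genes tested were 19.7% higher and 21.3% lower, and the members were chosen with this contrast known. Ctsl, a cysteine endopeptidase encoded on chromosome 13 (64464522 to 64471648, minus strand, build NCBIM37), was the most abundant protease transcript with doxycycline. It measured 109.9 and 111 FPKM with and 58.9 and 57.0 FPKM off the drug. Its level off doxycycline was 0.524 of that with it, and the log2 change was -0.93 ± 0.08, with no overlap between the conditions. Ctsa, the serine carboxypeptidase known as protective protein, lies on chromosome 2 (164658373 to 164666532, plus strand, NCBIM37). Its level was 32.7 and 35.2 FPKM with doxycycline and 60.7 and 69.6 FPKM off it. This is a 1.92-fold rise and a log2 change of 0.93 ± 0.10, the opposite of Ctsl at almost the same size, so that the order of these 2 proteases turned over between the conditions. Ctsf, another cysteine protease, was at 7.19 and 6.57 FPKM with and 12.8 and 13.8 FPKM off doxycycline (log2 change 0.90 ± 0.09). It came from a single annotated isoform of 1975 nt. Ctsc, dipeptidyl peptidase I, was low in both conditions, at 1.45 and 1.48 FPKM with and 0.56 and 0.57 FPKM off the drug (log2 change -0.88 ± 0.13). Both libraries off doxycycline lay below 1 FPKM and both with it lay above, so Ctsc entered the test only through the group with doxycycline.

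Ctsb, a cysteine protease that also trims peptides from their ends, measured 40.9 and 41.7 FPKM with and 56.7 and 57.2 FPKM off doxycycline (log2 change 0.46 ± 0.08). Tpp1, which removes tripeptides from the ends of proteins, was at 15.97 and 15.1 FPKM with and 22.1 and 20.3 FPKM off it (0.44 ± 0.09). In both genes the lower of the libraries off the drug was still above the higher of those on it. Ctsd, the main aspartic protease of the lysosome, measured 68.8 and 70.6 FPKM with and 71.3 and 78.5 FPKM off doxycycline. Its log2 change of 0.10 ± 0.09 did not pass, and under TPM scaling (each library scaled to one total) it was 0.26 and passed. The assembly joins Ctsd with the neighbouring Ifitm10 in 1 locus, so the split of reads between the 2 is uncertain. Ctsz, at 28.3 ± 1.70 FPKM (SD, n = 2) with and 26.9 ± 2.66 FPKM off doxycycline, did not pass either. Ctsh stayed out of the test, with 0.20 and 0.21 FPKM against 0.16 and 0.15 FPKM.

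Among the glycosidases, which remove sugars from glycans and glycolipids, 2 of 12 tested rose, 3 fell and 7 did not pass. The share called, 41.7%, is close to the 41% over all genes tested. Gaa, the acid α-glucosidase that breaks down glycogen, measured 22.1 and 22.0 FPKM with doxycycline and 34.3 and 36.6 FPKM off it. The log2 change was 0.67 ± 0.08, and the libraries within a condition differed by far less than the conditions did. Manba, β-mannosidase, stood at 86.8 ± 4.30 FPKM (SD, n = 2) with and 117 ± 1.26 FPKM off the drug (0.43 ± 0.09). Most of the Manba sum came from assembled forms that share a junction with the annotated gene but start inside it. The most abundant of these, 2687 nt long, measured 23.8 and 26.6 FPKM with and 44.3 and 47.5 FPKM off doxycycline. Forms of 3126 nt (7.99 FPKM with and 15.2 off) and 2667 nt (8.27 and 13.5) also had higher means off it. Forms of 1782 nt (11.3 and 8.84), 2404 nt (7.48 and 6.07) and 2818 nt (8.27 and 4.16) had lower means off it.

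The 3 glycosidases that fell were Neu1, Naglu and Hexa. Neu1, the sialidase, measured 5.31 and 5.67 FPKM with and 3.23 and 3.71 FPKM off doxycycline (log2 change -0.60 ± 0.11). Naglu, which acts in heparan sulfate breakdown, was at 1.16 and 1.05 FPKM with and 0.67 and 0.49 FPKM off it (-0.58 ± 0.16). Both genes were lower in each library off the drug than in each library on it. Naglu lay close to the minimum for testing and reached it only with doxycycline. Hexa, the α-subunit of β-hexosaminidase A, measured 19.3 and 19.0 FPKM with and 13.3 and 13.7 FPKM off doxycycline (-0.48 ± 0.08). The 7 that did not pass were Galc (0.31 ± 0.13), Man2b1 (0.26 ± 0.08), Gusb (0.23 ± 0.09), Fuca1 (0.12 ± 0.17), Glb1 (0.12 ± 0.08), Gla (-0.02 ± 0.09) and Idua (-0.27 ± 0.15), all as log2 changes. Glb1 shares an assembled locus with Tmppe, and the split of reads is uncertain for Glb1 and for Fuca1. In Fuca1, the libraries off doxycycline (14.5 and 20.7 FPKM) spread to either side of those on it (15.7 and 16.02 FPKM).

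Members whose proteins work in 1 complex or on 1 substrate did not all move together. Cathepsin A, β-galactosidase and the sialidase Neu1 form a complex in the lysosome, and their transcripts rose, did not pass and fell, with log2 changes of 0.93 (Ctsa), 0.12 (Glb1) and -0.60 (Neu1). In ganglioside breakdown, Hexa fell by 0.48 while Gm2a, the activator that presents ganglioside to β-hexosaminidase A, rose by 0.48 on the log2 scale. Differences between members were not tested.

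Of the sulfatases, which remove sulfate from glycans and lipids, Arsa rose and the other 2 tested did not pass. Arsa, the enzyme that cleaves sulfatide, measured 4.59 and 4.67 FPKM with and 8.97 and 8.74 FPKM off doxycycline. That is a 1.91-fold rise and a log2 change of 0.87 ± 0.09, with little spread within each condition. Ids, which removes sulfate from heparan and dermatan sulfate, stood at 5.69 ± 0.46 FPKM (SD, n = 2) with and 4.85 ± 0.37 FPKM off it. Galns was at 1.97 ± 0.22 and 1.86 ± 0.12 FPKM. Arsb was below 1 FPKM in all 4 libraries, at 0.19 and 0.28 FPKM with and 0.68 and 0.81 FPKM off doxycycline, and was not tested.

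Lipid enzymes and cofactors moved in 1 direction among those called. Of 8, 5 rose (Naaa, Gm2a, Ppt1, Npc2 and Psap), none fell and 3 did not pass. The shares over all genes tested were 19.7% higher and 21.3% lower, and the members were chosen with this contrast known. Naaa is N-acylethanolamine acid amidase, which hydrolyses lipid amides such as palmitoylethanolamide, and lies on chromosome 5 (92686684 to 92707264, minus strand, NCBIM37). It measured 4.47 and 4.26 FPKM with doxycycline and 32.2 and 30.7 FPKM off it. The mean off the drug was 7.21 times that with it, and the log2 change was 2.72 ± 0.08. The next largest rise was that of Lamp2, and the libraries within each condition lay close together.

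Among the cofactors, Gm2a was at 8.96 and 8.93 FPKM with and 14.2 and 11.4 FPKM off doxycycline (log2 change 0.48 ± 0.12). Psap, the precursor of the saposins that help enzymes reach sphingolipids, measured 71.5 and 71.8 FPKM with and 93.1 and 90.7 FPKM off it (0.36 ± 0.08). Npc2, the soluble protein that binds cholesterol inside the lysosome, was at 101 and 111 FPKM with and 135 and 143 FPKM off it (0.39 ± 0.09). All 3 were higher in each library off the drug, but Npc2 lost the call without any 1 of the 4 libraries, and Gm2a and Psap without any 1 of 3 (library 0 or 1 with doxycycline or library 0 off it). Ppt1, which removes palmitate from proteins, measured 13.4 and 12.3 FPKM with and 18.3 and 17.8 FPKM off doxycycline (0.48 ± 0.09). The 3 that did not pass were Smpd1, the acid sphingomyelinase (3.13 ± 0.02 and 3.60 ± 0.35 FPKM, SD, n = 2), Lipa, the acid lipase (2.89 ± 0.0015 and 3.19 ± 0.45 FPKM), and Asah1, the acid ceramidase. Asah1 was among the most abundant members, at 91.5 ± 6.16 FPKM with and 88.4 ± 2.23 FPKM off doxycycline.

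The membrane proteins rose in 5 of 6 cases, and none was called lower. Over all genes tested 19.7% were called higher, and the members were chosen with this contrast known. Lamp2, an abundant glycoprotein of the lysosomal membrane that takes part in autophagy, lies on chromosome X (35752788 to 35809631, minus strand, NCBIM37). It measured 18.5 and 16.6 FPKM with and 53.2 and 46.2 FPKM off doxycycline. The ratio of means was 2.83 and the log2 change 1.47 ± 0.11, the second largest of all members. Lamp1, its close relative, was the most abundant member in every library, at 154 and 152 FPKM with and 183 and 195 FPKM off the drug. Its log2 change was 0.30 ± 0.09, and each of the 4 fits with 1 library left out lost the call. The ratio of Lamp1 to Lamp2 therefore narrowed, although both transcripts were higher off doxycycline in every library. Scarb2 (LIMP-2), which carries β-glucocerebrosidase to the lysosome, measured 24.5 and 26.0 FPKM with and 45.1 and 44.8 FPKM off it (0.82 ± 0.08). The cholesterol exporter Npc1 stood at 7.80 ± 0.50 FPKM (SD, n = 2) with and 10.1 ± 0.87 FPKM off doxycycline (0.35 ± 0.10). Cln3, a membrane protein lost in juvenile Batten disease, was at 18.4 ± 1.66 and 23.9 ± 2.04 FPKM (0.37 ± 0.11). Npc1 and Cln3 each kept the call in 6 of the 12 alternatives that used all 4 libraries. Mcoln1, the calcium channel of the lysosomal membrane, did not pass, at 18.9 ± 0.14 and 16.3 ± 1.09 FPKM (-0.21 ± 0.09), and its assembled locus includes the neighbouring Pnpla6.

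The 2 transcription factors in the set were not higher off doxycycline. Tfeb measured 20.6 and 23.6 FPKM with and 20.3 and 23.5 FPKM off the drug. The conditions overlapped almost completely, and the log2 change of -0.01 ± 0.12 did not pass. Its sign depended on the setting, with 0.14 under TPM scaling and 0.46 with only the most abundant isoform, neither of which passed. Tfe3, on chromosome X (7339686 to 7352328, plus strand, NCBIM37), fell from 34.2 and 35.4 FPKM with to 25.02 and 28.4 FPKM off doxycycline (-0.38 ± 0.10). Tfe3 lost its call under TPM scaling (-0.22) and was spread over many isoforms, none with more than 23.3% of the sum.

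Isoform values are given for the 6 members with the largest difference whose level was shared by at least 2 isoforms of at least a 20% share. How Cufflinks assigns fragments among overlapping isoforms is an estimate, and no test was run on isoforms. In Naaa, both annotated forms were higher off doxycycline. The 1629-nt form measured 2.60 and 2.28 FPKM with and 20.3 and 22.1 FPKM off the drug, and the 2413-nt form 1.62 and 1.27 FPKM with and 9.82 and 6.39 FPKM off it. The difference therefore did not rest on 1 form. In Lamp2, the 3604-nt form measured 15.0 and 11.98 FPKM with and 37.1 and 28.8 FPKM off doxycycline. The 1769-nt form, which ends elsewhere in the gene, measured 2.33 and 3.59 FPKM with and 14.4 and 16.01 FPKM off it. The shorter Lamp2 form was low in both libraries with doxycycline, and its mean was 15.2 FPKM off the drug against 2.96 FPKM on it.

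Ctsa shows the limit of such a split. Its 1818-nt form measured 23.6 and 23.5 FPKM with and 26.9 and 47.1 FPKM off doxycycline, and its 1827-nt form 2.97 and 4.98 FPKM with and 22.8 and 9.79 FPKM off it. The library off doxycycline that was high in one form was low in the other, while the gene sums (60.7 and 69.6 FPKM) lay closer together. Scarb2 was higher off the drug in each of its 3 forms, with means of 10.6 and 18.7 FPKM (1894 nt), 9.47 and 15.2 FPKM (4397 nt) and 5.21 and 10.9 FPKM (5277 nt). In Gaa, both forms were higher in both libraries off doxycycline, with means of 11.2 and 16.5 FPKM (3363 nt) and 9.28 and 17.2 FPKM (3633 nt). Both forms of Ctsc were lower, with means of 0.74 and 0.32 FPKM (2493 nt) and 0.63 and 0.18 FPKM (831 nt).

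**Figure D3:**
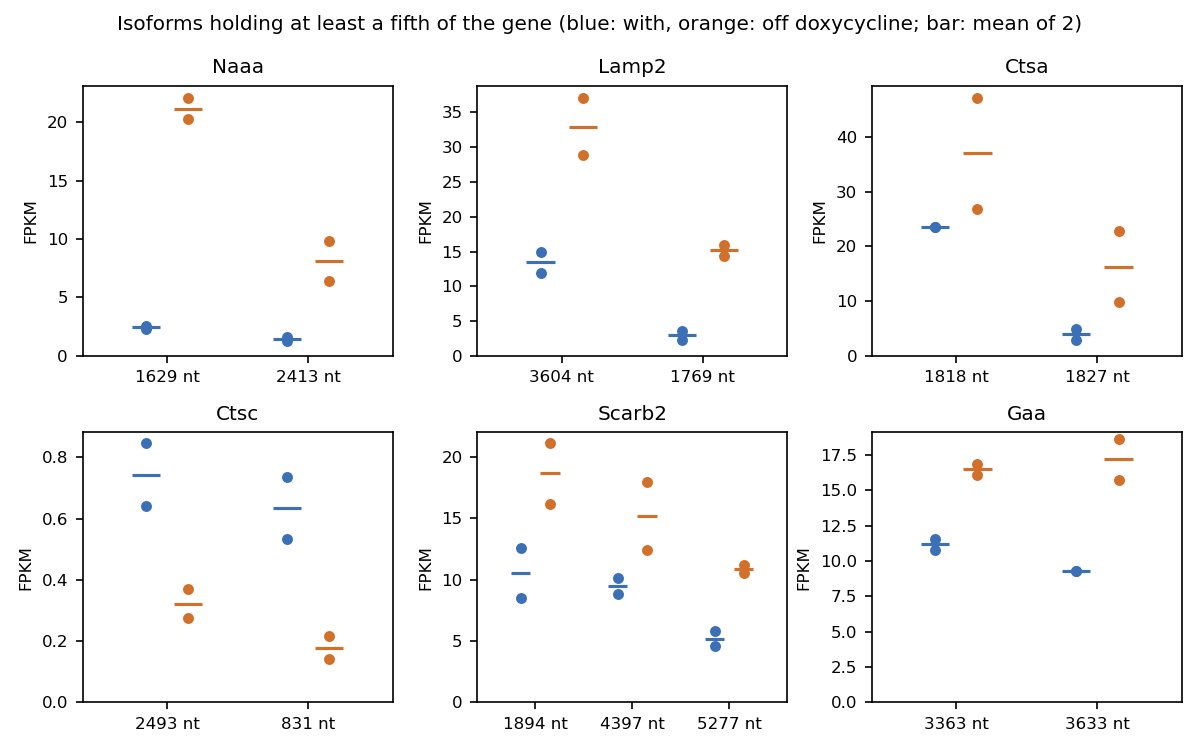
FPKM of single isoforms of Naaa, Lamp2, Ctsa, Ctsc, Scarb2 and Gaa in each library, with isoform length on the horizontal axis. Blue points are the 2 libraries with doxycycline, orange points the 2 libraries off it, and bars are means of 2. All forms drawn for Naaa, Lamp2 and Gaa were higher off doxycycline, and the spread between libraries was widest for the Ctsa forms.

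Promoters were compared by the letters they hold. Of the 41 members, 36 had a promoter in the RefSeq table. The E-box core CACGTG, which reads the same on both strands, was present in 12 of them (33.3%), against 8.09% of all 27025 genes with a promoter of the same length and 12.1% of the 9314 tested genes with one. The longer form TCACGTG, searched on both strands and always containing the core, was present in 10 members (27.8%), against 4.29% and 7.2%. Lamp1 held 4 copies, beginning 61, 45, 28 and 15 bases before the start, as the capitals in its sequence show. Ctsa and Cln3 in their second promoter, and Ctsd, Gla and Mcoln1, held 2 copies each. Arsa, Ctsf, Ctsl, Gaa, Glb1 and Naglu held 1.

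Called members of both directions were found with and without the core. Of the 12 with it, all tested, 6 were higher (Arsa, Cln3, Ctsa, Ctsf, Gaa and Lamp1), 2 were lower (Ctsl and Naglu) and 4 did not pass, with a median log2 change of 0.21. Of the 23 tested members whose promoter lacked it, 9 were higher, 4 were lower and 10 did not pass, with a median of 0.23. Naaa and Lamp2, the members with the largest rises, were among those without the core in this window. A match is a description of the letters and not evidence of binding, and the difference between these members was not tested.

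**Figure D4:**
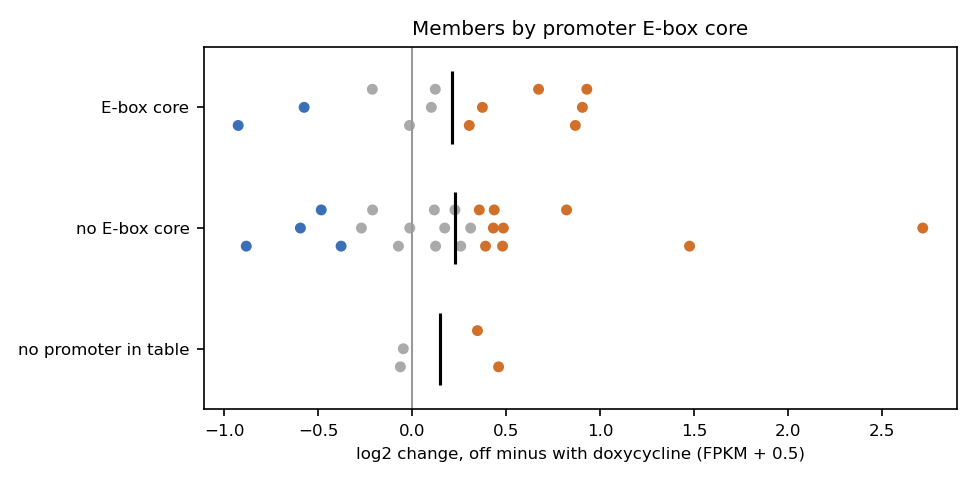
Log2 change (off minus with doxycycline, FPKM + 0.5) of the 39 tested members, split by whether the RefSeq promoter window holds the E-box core, lacks it or is not in the table. Orange points were called higher, blue points lower and grey points did not pass, and black bars are medians (0.21 with and 0.23 without the core). Called members of both directions lie in both of the first 2 rows.

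Matches to the miR-291a-3p seed were found in a similar share of members and of all tested genes. An 8mer or 7mer-m8 match was found in 8 of 41 members (19.5%) and in 18.3% of the 11415 tested genes with an annotated region. The 8 were Lamp2, Gla, Ctsa, Ctsb, Tpp1, Idua, Neu1 and Arsb. Of these, Lamp2, Ctsa, Ctsb and Tpp1 were higher off doxycycline, Neu1 was lower, Gla and Idua did not pass and Arsb was not tested. The Gla and Lamp2 8mers differ in their flanks and in their genes' values, with Gla at 4.43 ± 0.07 FPKM (SD, n = 2) with and 4.38 ± 0.09 FPKM off the drug. The transcript of the 3604-nt Lamp2 form held the 8mer, and that of the 1769-nt form a 7mer-m8 match in its own region. Neither annotated Naaa form held a match of 7 or more bases. These regions come from a later annotation than the assembly and can be longer than the deposited isoform, as for Ctsb. For Ctsa no deposited isoform matched the transcript searched, so its site is not placed in a measured isoform.

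Other lysosomal genes were read from 5 lists of pathway members outside the set, 119 genes with 100 tested, of which 30 were higher and 9 lower under limma. These 39% called are close to the 41% called over all genes. By list, the shares called were 58.3% (enzymes and cofactors), 42.3% (membrane proteins and transporters), 15.8% (proton pump), 16.7% (sorting) and 47.4% (nutrient sensing). Leaving out 1 library gave 22 (library 0 with doxycycline), 21 (library 1 with it) and 23 calls (library 0 off it) in place of 39. Of 24 further enzymes and cofactors tested, 14 were higher and none was lower, with a median log2 change of 0.40. Hgsnat, which acetylates heparan sulfate for its breakdown, measured 8.49 and 7.09 FPKM with and 20.02 and 18.3 FPKM off doxycycline (1.25 ± 0.12, limma adjusted p = 0.0026). Grn, the progranulin precursor, rose by 1.02 ± 0.10 (adjusted p = 0.0028), from 27.8 and 30.7 to 56.5 and 62.8 FPKM. Lgmn, the asparaginyl endopeptidase legumain, rose by 0.82 ± 0.08 (adjusted p = 0.0028).

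Of 26 further membrane proteins and transporters tested, 10 were higher and 1 (Abca2) was lower, with a median log2 change of 0.28. The share called, 42.3%, is close to the 41% over all genes tested. Slc36a1, an exporter of small amino acids from the lysosome, rose by 1.14 ± 0.11 (limma adjusted p = 0.0027), from 5.29 and 4.59 to 12.1 and 10.9 FPKM. Mfsd12, a cysteine importer of the lysosome, rose by 0.80 ± 0.11 (adjusted p = 0.0057), Slc17a5, the sialic acid exporter, by 0.70 ± 0.11 (adjusted p = 0.0092) and Cd68, a LAMP-family glycoprotein, by 0.62 ± 0.09 (adjusted p = 0.0062).

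The vacuolar proton pump, which acidifies the lysosome, had 19 subunits tested, of which 2 were higher and 1 was lower, with a median of -0.03. The 2 that rose, Atp6v0a4 and Tcirg1, are both forms of the membrane a-subunit, but its more abundant forms Atp6v0a1 and Atp6v0a2 did not pass. Atp6v0a1 had means of 13.9 FPKM with and 11.7 FPKM off doxycycline (log2 change -0.24 ± 0.09). Atp6v0a2 had means of 9.33 FPKM with and 10.2 FPKM off it (0.12 ± 0.09). Atp6v0a4 measured 1.58 and 1.58 FPKM with and 4.75 and 4.09 FPKM off doxycycline (log2 change 1.24 ± 0.12, limma adjusted p = 0.0026). Tcirg1 measured 3.33 and 3.08 FPKM with and 8.70 and 7.12 FPKM off it (1.18 ± 0.13, adjusted p = 0.0034). Atp6v0e2 fell by 0.55 ± 0.12 (adjusted p = 0.021) and kept the call in 9 of 16 alternatives. The abundant Atp6v0d1 did not pass (-0.26 ± 0.08, adjusted p = 0.055). Its change was -0.33 and passed with the library medians set equal (adjusted p = 0.016), and was -0.10 under TPM scaling (adjusted p = 0.30). With the library medians set equal, 7 of the 19 subunits were called, and 47.1% of all genes tested.

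Tagging with mannose 6-phosphate and sorting gave 1 higher and 1 lower gene of 12, with a median of -0.03. The cation-dependent receptor M6pr measured 81.4 and 78.2 FPKM with and 65.8 and 63.8 FPKM off doxycycline (-0.30 ± 0.08, limma adjusted p = 0.037). It lost the call without any 1 of the 4 libraries and under TPM scaling (-0.14). The cation-independent receptor Igf2r, the gene whose symbol the unmatched name carries, stood at 13.0 and 13.6 FPKM with and 12.9 and 12.5 FPKM off it and did not pass (-0.06 ± 0.08, adjusted p = 0.59, and 0.10 under TPM scaling). Vps26a, a subunit of the retromer that recycles sorting receptors, rose by 0.46 ± 0.08 (adjusted p = 0.012). Nagpa, which uncovers the mannose 6-phosphate tag, and Vps29, another retromer subunit, did not pass, with log2 changes of 0.48 ± 0.16 and -0.31 ± 0.10.

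In the list of MiT/TFE factors and lysosomal nutrient sensing, 3 of 19 tested were higher and 6 were lower, with a median of -0.12. Mitf, the relative of Tfeb and Tfe3, measured 6.02 and 6.10 FPKM with and 17.4 and 17.0 FPKM off doxycycline (1.43 ± 0.08, limma adjusted p = 0.0015). Its change was 0.59 and did not pass when only isoforms matching an annotated transcript were summed. Mitf kept its sign in all 16 alternatives and its call in 14 of them. Rragb, one of the Rag GTPases that bring mTORC1 to the lysosome, fell by 1.22 ± 0.11 (adjusted p = 0.0025), from 22.0 and 21.1 to 9.81 and 8.16 FPKM. Lamtor4, a subunit of the Ragulator complex that anchors the Rags, fell by 0.64 ± 0.18 (adjusted p = 0.040), with 13.6 and 19.6 FPKM off the drug. It kept the call in 9 of 16 alternatives, and lost it without library 0 or 1 with doxycycline or library 0 off it, among others. Tbc1d7, a subunit of the TSC complex, fell by 0.60 ± 0.09 (adjusted p = 0.0066) and by 1.42, without passing, when only its most abundant isoform was used. Among the tested factors of this family Mitf was the one that rose, and Tfec was below the minimum.

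**Figure D5:**
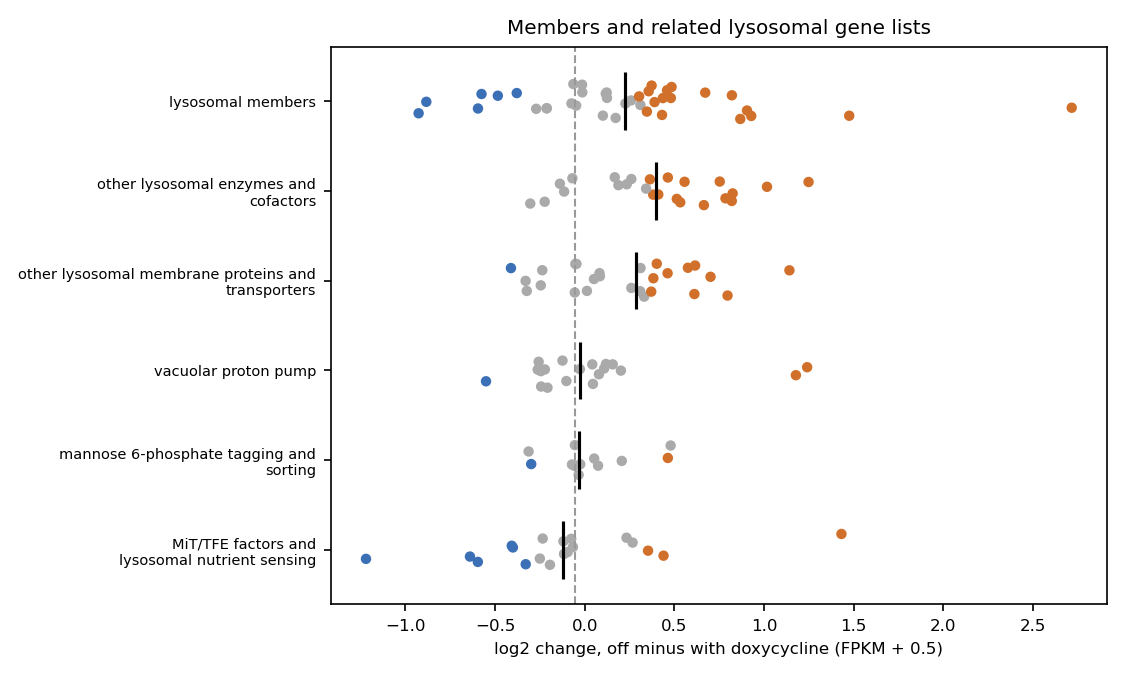
Log2 change (off minus with doxycycline, FPKM + 0.5) of each tested gene in the lysosomal set and in 5 lists of related genes. Orange points were called higher by limma, blue points lower and grey points did not pass, black bars are medians and the dashed line is the median of all genes tested (-0.06). Medians were 0.23 for the set, 0.40 and 0.28 for the further enzymes and membrane proteins, and -0.03, -0.03 and -0.12 for the remaining lists.

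Lysosomal genes are abundant in macrophages and in visceral endoderm, so markers of other cell types were read beside these results. The 12 markers of primitive and visceral endoderm summed to 2.73 to 3.03 FPKM with and 2.48 to 2.85 FPKM off doxycycline, and Afp and Ttr were at 0. One of them, Gata4, passed the minimum, only through its level off doxycycline. It was called higher, from 0.50 and 0.81 to 1.27 and 1.39 FPKM. Below the minimum and not tested, Sox7 was at 0.66 and 0.57 FPKM with and 0.048 and 0.055 FPKM off doxycycline, Dab2 at 0.72 and 0.88 against 0.17 and 0.28 FPKM, and Gata6 at 0.078 and 0.071 against 0.041 and 0.043 FPKM. Pdgfra (0.094 and 0.089 against 0.18 and 0.16 FPKM) and Sox17 (0 and 0.022 against 0.040 and 0.044 FPKM) were higher, also untested. Macrophage markers summed to 0.80 to 1.01 FPKM with and 0.43 to 0.83 FPKM off doxycycline, with Adgre1 and Lyz2 at 0. Both the endoderm and the macrophage sums overlapped between the conditions. Untested, Itgam was at 0.64 and 0.72 FPKM with and 0.13 and 0.21 FPKM off doxycycline. Cd14 was at 0.034 and 0.23 against 0.18 and 0.41 FPKM. Trophoblast markers summed to 34.4 to 37.4 FPKM with and 51.3 to 59.2 FPKM off doxycycline. Most of that was Tfap2c and the keratins Krt8 and Krt18, Krt8 rose, and Prl3d1 and Ctsq were at 0. Also untested were Gata3, at 0.65 and 0.57 FPKM with and 0.35 and 0.31 FPKM off the drug, Cdx2, at 0.057 and 0.055 against 0.011 and 0.011 FPKM, and Krt7, at 0.30 and 0.40 against 0.13 and 0.27 FPKM. Markers of fibroblasts and mesenchymal cells summed to 87.7 to 122 FPKM with and 147 to 278 FPKM off it, nearly all of it Vim, with Col3a1 and Postn at 0. Vim did not pass (log2 change 0.97 ± 0.34, limma adjusted p = 0.070), at 85.2 and 120 FPKM with and 144 and 275 FPKM off doxycycline. Thy1, the other marker of this list that was tested, did not pass either. The part of these differences in the lysosomal values was not tested.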

How the data were processed

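PolyA RNA was measured in 2 libraries with and 2 off doxycycline. The authors deposited FPKM for every isoform of a merged assembly. Per the submitters' processing notes, TopHat2 2.0.9, Cufflinks 2.1.1 and build NCBIM37 were used. The library total behind the FPKM is not stated. The deposited column names give the condition and a number (0 or 1) that could not be matched to the labels' replicates.

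FPKM was summed per gene over named isoforms of at least 200 nt that match or share a junction with an annotated transcript (141569 of 181027 isoforms). Shorter isoforms held 98.9% to 99.6% of a library's summed FPKM, and 0 of the 318 member isoforms were among them. The shortest used was a Gaa form of 241 nt. Dates standing in place of 25 symbols (236 isoforms) were restored. The sums were transformed as log2(FPKM + 0.5), and genes whose mean reached 1 FPKM in a condition went into a two-sided limma fit with trend (limma 3.58.1, R 4.3.3; prior degrees of freedom 3.21, residual 2). Benjamini-Hochberg adjustment ran over 13206 genes at 0.05. The procedure was tested on simulated data. Promoters came from RefSeq (GRCm38.p6) and 3′ regions from GENCODE mouse release M21, used for sequence only. Other steps ran in Python 3.11.15 (matplotlib 3.10.9, scipy 1.17.1, pandas 2.3.3, numpy 2.4.6).

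The members and lists were chosen with earlier results of these data known, and so were the tests. Values per library are given for the 16 members with the largest absolute change and for Tfeb, Tfe3, Lamp1, Lamp2, Ctsb, Ctsd, Ctsl, Psap and Npc2, and from each list for the 4 genes with the largest absolute change, Igf2r and M6pr. One gene that this rule names is not reported here. Alternatives covered scaling, pseudocount, minimum level, isoforms summed, gene names, the variance model, a replicate block and leaving out each library.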

Additional observations from a re-analysis of the deposited data

How the results depend on the processing

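With only the most abundant isoform per gene, 2053 in place of 5417 genes were called, 11 members (9 higher, 2 lower) in place of 23 (17 and 6), and 17 in place of 39 genes of the pathway lists (8 further enzymes, 4 membrane proteins and 1 nutrient sensing gene in place of 14, 11 and 9). With only isoforms matching an annotated transcript, 2590 genes, 15 members (3 lower) and 21 list genes were called (8, 6, 4, and 1 sorting gene in place of 2). Leaving out each library in turn, with the lone library assumed to vary like the others, gave 3228 to 4416 genes, 11 to 19 members (7 to 14 higher, 3 to 5 lower) and 21 to 27 list genes (8 to 10 enzymes, 6 to 8 membrane proteins, 2 to 3 pump subunits, 0 to 1 sorting genes and 3 to 6 nutrient sensing genes). The members' median log2 change of 0.23 was 0.40 under TPM scaling, 0.35 with a minimum of 5 FPKM and 0.34 with the most abundant isoform. TPM scaling moved the median of all genes from -0.06 to 0.10, and setting the library medians equal moved it to -0.12. Of the calls over all genes 48.1% were higher, 67.6% under TPM scaling and 38.1% with equal medians. Of the members' calls 73.9% were higher, 84.6% under TPM scaling (22 higher, 4 lower) and 70.0% with equal medians (14 and 6). Relative to those medians, the members' median lay above that of all genes under each scaling. With equal medians 7 pump subunits were called in place of 3, while 47.1% of all genes were called in place of 41%. The log2 change of Tfeb reversed to 0.14 under TPM scaling, 0.46 with the most abundant isoform and 0.39 with annotated isoforms only, and ran from -0.12 to 0.0907 without each library. Igf2r reversed to 0.10 under TPM scaling and Vps29 to 0.056 with the most abundant isoform. For Tfeb, Igf2r and Vps29 no value passed under these settings, and the cause was not tested. Over the named members and alternatives, 290 values kept direction and side of the threshold, 51 lost the call, 1 (Ctsd, 0.26 under TPM scaling) gained it and 5 reversed. All 17 named list genes that were called kept their sign, and 9 kept their call in every alternative. A replicate block by library number called 8159 genes, 64 list genes, 14 nutrient sensing genes, 5 sorting genes and 11 pump subunits. The deviations of same-numbered libraries correlated at 0.461 over 13206 genes. Low values were whole fragments in both libraries numbered 1 (99.4% and 99.5%) and less often in both numbered 0 (44.2% and 47.4%). With 2 pairs and no label tying the numbers, what same-numbered libraries share is unknown, and the main fit does not account for it. The libraries numbered 0 have no known depth, and 2 members under 1 FPKM could not be tested.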
